A study of Mus musculus with 7 samples.

Results

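This comparison set p53-/- Dnmt1-/- mouse embryonic fibroblasts (MEFs) 2 weeks after the removal of trichostatin A (TSA) against cells of the same genotype that were still in TSA, at 24 h and at 48 h. It used 3 of the 7 Affymetrix arrays of the series. The members were chosen by a size rule on the deposited signals after an offset of 11.4 was added to each: a gene, or a probe set without a single gene name, had to differ at least 2-fold from the TSA 24 h array and at least 2-fold from the TSA 48 h array, in the same direction. Of 9390 such features measured, 493 were higher after TSA removal than in both TSA arrays and 950 were lower. The remaining arrays held untreated p53-/- Dnmt1-/- cells and, for p53-/- cells, TSA for 24 h, TSA for 48 h and no treatment. All 7 arrays, the untreated ones included, came from cells that lacked p53. Cells without both genes are called p53-Dnmt1-null here and cells without p53 alone p53-null. Every group held 1 array of total RNA. The sources used here give neither the TSA dose nor the length of TSA exposure before removal, and they do not say whether the arrays came from separate cultures or lines.

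TSA inhibits histone deacetylases, the enzymes that take acetyl groups off histone tails, and inhibition lets acetylation build up at many genes. In cultured cells such inhibitors are known to slow or stop division and to switch on genes that are otherwise kept silent. Dnmt1 copies DNA methylation to the new strand at replication, and methylation recruits deacetylase complexes, so cells without Dnmt1 lack most of a mark that helps to hold genes silent. Fibroblasts deleted for Dnmt1 are usually studied without p53, because p53 triggers the death of cells that lose methylation.

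Of 44 measured genes of chromosome condensation and segregation, 19 were at least 2-fold higher after TSA removal than on both TSA arrays and 0 were lower. At least 2-fold lower were 19 of 30 interferon-stimulated genes, 15 of 30 neuronal genes, 15 of 49 genes of the extracellular matrix and 9 of 25 muscle genes. Over all features 5.25% were higher and 10.1% lower. A larger offset, at the pooled median, left 9, 6, 10 and 6 genes of these 4 lists lower, and 427 of all features instead of 950. Malat1 was among the genes furthest above both TSA arrays, and Angptl7, Tex101 and Aldh1a1 were among those furthest below, where the order of the dimmest genes depends on the offset. The summed signals of epithelial, mesothelial and fibroblast markers were also lower after removal than on either TSA array. Taken singly, 4 of the 20 fibroblast markers were above and 4 below both TSA arrays.

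The arrays had the same overall scale, with median signals between 41.9 on the removal array and 48.8. Signal is a linear brightness with no read depth behind it, and precision is limited by having so few arrays. The control probe sets for 18S ribosomal RNA, read at the 3' end, gave 93.6 after TSA removal, against 2549.1 at 24 h and 1292.1 at 48 h of TSA, 688.1 in untreated p53-Dnmt1-null cells and 194.0 to 337.5 in p53-null cells. The removal array was thus the lowest of the 7 in 18S and the TSA 24 h array the highest. The actin 3' control read 7904.8 after removal and 5661.0 and 5227.4 in TSA. The part of these differences in the results below was not tested. Dnmt1, the deleted gene, had a signal of 123.2 after TSA removal, 74.0 and 109.5 in TSA and 206.5 in untreated p53-Dnmt1-null cells, against 695.6 untreated and 384.4 and 308.2 at 24 h and 48 h of TSA in p53-null cells. Every p53-null array was above every p53-Dnmt1-null array. The sources used here do not place its probes relative to the deletion, so it checks the labels only by direction, and it did not pass the test between removal and TSA (0.41 ± 0.34, limma adjusted p = 0.422). The other Dnmt1 probe set, at a mean signal of 147.8, differed by 1.62 between removal and TSA.

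The label of the cells was checked against markers. The summed signal of 20 fibroblast markers was 10430.9 after TSA removal, 15842.1 and 17237.9 in TSA and 13835.0 in untreated p53-Dnmt1-null cells, and lay between 32525.4 and 41438.3 in p53-null cells. For 23 markers of epithelium and mesothelium (the lining of the body cavities) the sums were 13823.4 after removal, 22238.7 and 22779.9 in TSA and 18191.2 untreated, against 397.9 to 660.9 in p53-null cells. The p53-Dnmt1-null arrays thus carried keratins and the mesothelial genes Upk3b, Wt1 and Msln together with collagens and Vim, and the label names only fibroblasts. Among the epithelial markers Muc1, Ehf and Krt15 were under 11.4 on every array. Of 17 macrophage markers 12 were not above the pooled median, 45.6, on any array. The sums over all 17 were 332.4 after removal and 603.7 and 566.4 in TSA. Ptprc read 6.2 after removal and 11.9 and 7.7 in TSA, and C1qa 1.8, against 2.2 and 2.9. In RNA from whole cultures, fewer cells of a type and less RNA per cell cannot be told apart.

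The removal array stood further from each TSA array than the TSA arrays stood from each other. Set against TSA 24 h alone, it was at least 2-fold above in 1161 features (12.4%) and below in 1631 (17.4%), and set against TSA 48 h alone, in 610 (6.50%) and 1275 (13.6%). The TSA 48 h array was at least 2-fold above the TSA 24 h array in 294 features and below it in 234. Only 1 feature went past 2-fold in opposite directions against the 2 TSA arrays. The rule required both differences, so 5.25% of all measured features were members above TSA and 10.1% were members below it, and these shares are the background for the counts against both TSA arrays below. The background of a count against 1 TSA array alone is that array's own share. Named genes made up 401 of the 493 higher and 866 of the 950 lower features.

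Differences were taken as log2(signal + 11.4), an offset that understates the change of dim genes. The median over all 9390 features was -0.16, and it was -0.17 against TSA 24 h and -0.15 against TSA 48 h, so the arrays were not centred on each other. With every difference centred on its median, 710 features were higher and 654 lower, so that 52.1% of the members were higher, against 34.2% without centring. With each probe set taken as its own feature the counts were 1012 higher and 1213 lower. Within the members, the median difference from TSA 24 h and 48 h was 1.82 and 1.31 for the higher features and -1.54 and -1.42 for the lower ones, values that the rule itself set a floor for. To enter the measured set a feature needed a signal above 45.6 on any of the 7 arrays. Of the higher features 48 did so only through the removal array, and of the lower ones 72 only through TSA arrays of p53-Dnmt1-null cells, so these had to be high there.

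**Figure D1:**
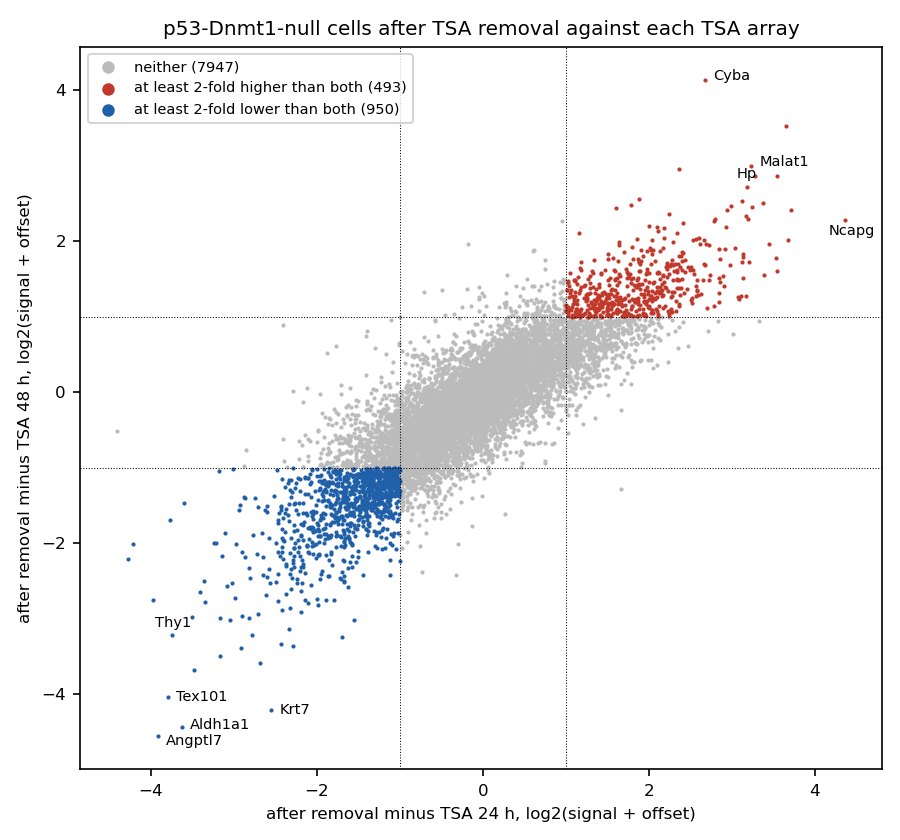
Each point is 1 of 9390 features, placed by its difference on the log2(signal + 11.4) scale between the array after TSA removal and the TSA 24 h array (horizontal) and the TSA 48 h array (vertical), and dotted lines mark 2-fold. The 493 features higher than both TSA arrays are red and the 950 lower than both are blue, and Cyba, Ncapg, Angptl7 and Krt7 lie near the outer edges.

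A test that used all 7 arrays gave the changes an error. In limma, with 24 h and 48 h of TSA pooled within each genotype, the array after removal was compared with the mean of the TSA arrays. The spread came from the 24 h and 48 h pairs (2 residual degrees of freedom, prior 5.75). Any change between 24 h and 48 h of TSA within a genotype was thus counted as error. The lone removal array was assumed to vary like these pairs. No group was repeated, so a p-value here does not speak of spread among repeats of a group. The sources used here do not say whether the paired arrays came from separate cultures. After Benjamini-Hochberg adjustment at 0.05, 395 features rose and 706 fell, which is 4.21% and 7.52% of those tested. At an unadjusted p under 0.05 there were 3229, where 469.5 would be expected with no change, and the lowest adjusted p was 0.01. Of the features past the size rule, 350 of the 493 higher and 668 of the 950 lower also passed limma. These counts depended on the TSA 24 h array. Without it limma called 4 higher and 19 lower, without the TSA 48 h array it called 675 and 755, and with no filter on dim features it called 0 in either direction, although 4043 of 14639 features then had an unadjusted p under 0.05. Below, "rose" and "fell" are kept for genes that passed limma, errors are standard errors of that fit, and differences are on the log2(signal + 11.4) scale, relative to TSA.

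Malat1, a long noncoding RNA that stays in the nucleus, had the largest rise over the nearer TSA array. Its signal was 1236.0 after TSA removal, against 121.2 at 24 h and 145.3 at 48 h of TSA and 54.4 in untreated cells, a difference of 3.11 ± 0.30 from TSA (limma adjusted p = 0.01). The removal array was thus the highest of the 4 p53-Dnmt1-null arrays by a wide margin. In p53-null cells Malat1 read 135.8 untreated, 545.6 at 24 h and 650.1 at 48 h of TSA, so there TSA arrays were above the untreated one. Its 4 other probe sets, at mean signals of 9.8 to 140.1, differed by -0.41 to 3.83, so the size and the sign of the change depended on the probe set.

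Haptoglobin, Hp, which binds free haemoglobin, had a signal of 1178.7 after removal, against 110.7 and 151.3 in TSA and 481.3 untreated, a rise of 3.08 ± 0.35 (limma adjusted p = 0.0115). Cxcl5, a chemokine that attracts neutrophils, read 302.2 after removal, 49.6 and 28.8 in TSA and 37.1 untreated. Cyba, the p22phox subunit of the NADPH oxidase, read 267.0 after removal, 32.1 and 4.4 in TSA and 18.7 untreated, and rose by 3.41 ± 0.54. For each of these genes the removal array was above all other p53-Dnmt1-null arrays. Cxcl1, another neutrophil chemokine, rose by 1.24 ± 0.32 to 631.3 after removal, against 304.2 and 224.3 in TSA. Lcn2, an iron-binding acute-phase protein, was 2.68-fold from the nearer TSA array without passing limma and passed the filter only through the removal array, at 105.8 after removal, against 29.5 and 32.3 in TSA (limma adjusted p = 0.0562).

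Taok1, a kinase of stress and microtubule signalling, read 840.0 after removal, 86.4 and 135.1 in TSA and 140.4 untreated. It differed by 2.83 from TSA, and its 3 other probe sets, at mean signals of 14.4 to 106.8, by only 0.35 to 1.46. Dhx36, a helicase that unwinds G-quadruplex nucleic acids, read 488.0 after removal, 41.4 and 79.8 in TSA and 89.6 untreated. Rif1, which sets replication timing and guards broken ends, read 232.5 after removal, 15.3 and 38.4 in TSA and 81.2 untreated. In all of these genes, among the p53-Dnmt1-null arrays, the removal array was highest, the untreated array came next and the TSA 24 h array was lowest. Scaf11, a splicing factor, rose by 2.56 ± 0.38 to 982.8, and Resf1, a silencer of retroelements, by 2.55 ± 0.36 to 426.8. The gasdermin Gsdme, a pore-forming protein, rose by 2.30 ± 0.34, while its other probe set, at a mean signal of 47.4, differed by only 0.22. Cip2a, an inhibitor of the phosphatase PP2A, read 210.0 after removal, 5.4 and 30.1 in TSA and 43.0 untreated, and passed the filter only through the removal array, so it had to be high there. Esf1, a nucleolar protein, rose by 2.76 ± 0.40 and Ttc14 by 2.53 ± 0.37. Ncapg, a condensin subunit, read 238.9 after removal, 0.7 and 40.2 in TSA and 89.2 untreated. Rpgrip1, a protein of the photoreceptor cilium, read 2923.7 after removal, against 271.0 and 503.5 in TSA, but its 3 other probe sets, at mean signals of 1.1 to 5.5, differed by only 0.02 to 0.34.

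Several of the genes with the largest falls read below 11.4, the 25th percentile of all signals, after TSA removal. Angptl7, a secreted angiopoietin-like protein, read 6.4 after removal, against 257.2 at 24 h and 406.9 at 48 h of TSA and 77.8 untreated, a difference of -4.24 ± 0.64 (limma adjusted p = 0.0186). Aldh1a1, which makes retinoic acid from retinal, read 27.9 after removal, 473.3 and 836.7 in TSA and 139.9 untreated (-4.03 ± 0.40, limma adjusted p = 0.01). Among the p53-Dnmt1-null arrays both were highest at 48 h of TSA and lowest after removal, below the untreated array. Thy1, a surface antigen of fibroblasts and neurons, read 79.3 after removal, 1209.0 and 827.8 in TSA and 346.2 untreated (-3.48 ± 0.33, limma adjusted p = 0.01). In p53-null cells Thy1 read 1042.9 untreated and 2162.4 and 1627.1 at 24 h and 48 h of TSA. Cd34, a surface sialomucin of progenitor cells, fell as well (-2.91 ± 0.49), to 29.5 against 277.7 and 313.7 in TSA.

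Among the other large decreases, Ctsf, a lysosomal protease, read 1.5 after removal, 132.0 and 152.9 in TSA and 39.7 untreated. Bckdha, a subunit of the enzyme that breaks down branched-chain amino acids, read 7.0 after removal, 153.5 and 134.2 in TSA and 83.2 untreated. Ptk2b, a focal adhesion kinase relative, read 1.7 after removal, 86.1 and 90.8 in TSA and 29.3 untreated. The removal array was the lowest of the p53-Dnmt1-null arrays for all of them, and its readings were too dim to rank. The tight junction protein Cldn3 and the fibrillin-binding Adamtsl4 fell, with differences of -3.15 ± 0.51 and -2.99 ± 0.37. The ephrin receptor Epha1 read 2.9 after removal, 106.9 and 104.4 in TSA and 38.4 untreated. Only its TSA readings took it over the filter. The drug exporter Slc47a1 fell with a difference of -2.85 ± 0.36. Tesc, a calcium-binding protein, was 6.72-fold lower than the nearer TSA array, at 16.9 against 432.0 and 178.8, but did not pass limma (adjusted p = 0.0752), and it read 5.5 untreated.

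**Figure D2:**
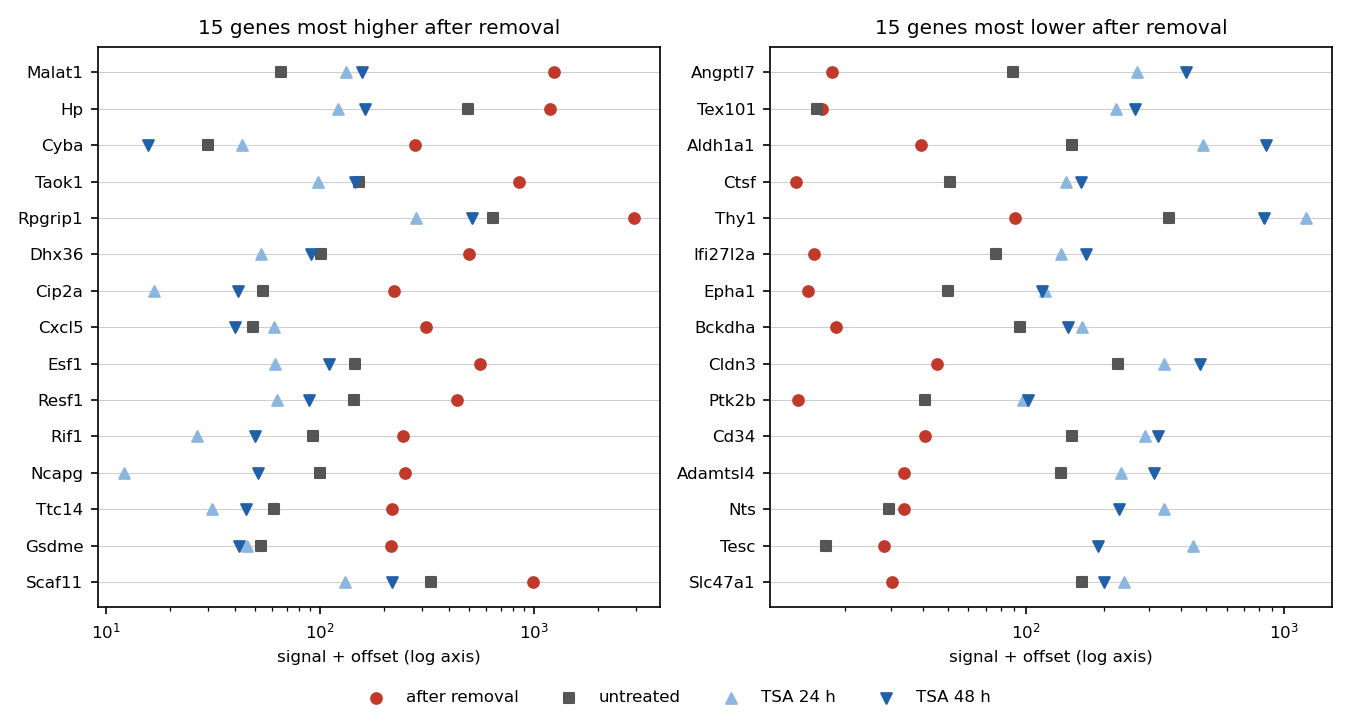
Signal plus the offset of 11.4, on a log axis, of the 15 named genes most above (left) and the 15 most below (right) both TSA arrays after TSA removal, with 1 point per p53-Dnmt1-null array. The untreated squares lie between the removal and TSA points for most of the genes on the right, and beside the removal point for Tex101 and Nts.

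Genes of the lysosome and of autophagy were among the genes with the smallest p. Grn, the precursor of granulins that act in the lysosome, read 700.9 after removal, against 3554.6 and 3100.6 in TSA and 1923.2 untreated (-2.23 ± 0.18, limma adjusted p = 0.01). Ctsd, the lysosomal aspartic protease cathepsin D, read 397.7 after removal, 1728.4 and 1553.4 in TSA and 999.3 untreated. Map1lc3a, which coats autophagosomes, read 162.2 after removal, 1206.6 and 858.4 in TSA and 470.9 untreated. All were bright genes that were lowest after removal, with the untreated array between. Laptm4b, a lysosomal membrane protein, and Aph1a, a subunit of the membrane protease gamma-secretase, fell with differences of -2.07 ± 0.23 and -2.53 ± 0.28. The 2 other probe sets of Aph1a, at mean signals of 141.5 to 144.1, differed by only -0.80 to -0.31. These genes were named by the size of their p, not from a list of lysosomal genes, so no count over that class is given. On the higher side the same ranking named Eif2s2, a subunit of the initiation factor that brings the first tRNA, at 3519.5 after removal, against 892.8 and 1175.2 in TSA (1.77 ± 0.24). Ssb, the La protein that binds new RNA polymerase III transcripts, rose by 2.32 ± 0.34, Pds5a, which binds cohesin, by 2.34 ± 0.35, and Pnrc2, an adaptor of mRNA decay, by 2.11 ± 0.29.

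Mitosis genes had the highest median of the 26 pathway lists. Of 44 measured genes of chromosome condensation, the spindle and its checkpoint, 19 (43.2%) were at least 2-fold above both TSA arrays and 0 were below, against 5.25% and 10.1% of all features, and 11 rose by limma, against 4.21% of all. The list's median difference was 1.99 from TSA 24 h and 0.85 from TSA 48 h, where all features had -0.17 and -0.15. The gap to 24 h was thus the larger one, and against TSA 24 h alone 38 of the genes were past 2-fold higher, where 12.4% of all features were.

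Kif22, a chromosome-arm kinesin, read 1272.5 after removal, against 230.3 at 24 h and 345.8 at 48 h of TSA and 709.4 untreated (2.13 ± 0.41, limma adjusted p = 0.0268). Kif23, a kinesin of the central spindle, read 566.1 after removal, 97.6 and 147.1 in TSA and 288.8 untreated (2.14 ± 0.45). Cenpf, a kinetochore protein, read 512.4 after removal, 34.0 and 141.4 in TSA and 250.9 untreated (2.65 ± 0.63). In these genes the p53-Dnmt1-null arrays kept 1 order, with removal highest, then untreated, then TSA 48 h, then TSA 24 h. Cenpe, the kinetochore motor, at 70.9 after removal, 8.4 and 10.9 in TSA and 22.3 untreated, was the 1 gene of the 19 that passed the filter only through the removal array. In p53-null cells the list's median difference between TSA and untreated cells was -0.57 at 24 h and -1.23 at 48 h.

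Of 39 measured DNA replication genes 5 (12.8%) were above both TSA arrays and 0 below, and 2 rose by limma. With the offset at the pooled median 2 were above both, and with every difference centred 8. Against TSA 24 h alone 26 were past 2-fold higher, and the medians were 1.14 against 24 h and 0.40 against 48 h. Gins1, a subunit of the replicative helicase complex, rose by 2.37 ± 0.45 to 347.4 after removal, against 38.6 and 85.0 in TSA and 129.2 untreated. Orc1 and Pola1, an origin-binding protein and the catalytic subunit of polymerase alpha, read 128.9 and 96.1 after removal, 27.0 and 13.2 at 24 h and 51.2 and 37.4 at 48 h of TSA, without passing limma (adjusted p = 0.074 and 0.0671), and Pola1 passed the filter only through the removal array. Dut, which clears dUTP, read 744.9 after removal, 289.9 and 334.0 in TSA (adjusted p = 0.127). The replication genes thus differed more from TSA 24 h than from TSA 48 h, and their median difference from untreated cells was -0.07. Cdkn2b and Cdkn2a, inhibitors of the kinases CDK4 and CDK6, fell with differences of -1.70 ± 0.35 and -1.27 ± 0.31, to 136.1 and 137.2 after removal, against 422.9 and 365.3 at 24 h and 520.1 and 330.4 at 48 h of TSA. Of 20 measured CDK inhibitors and G1 genes 3 were below both TSA arrays and 0 above. Set against TSA 24 h alone, 5 were past 2-fold lower and 3 higher, where 17.4% and 12.4% of all features were. For TSA 48 h alone the counts were 5 lower and 0 higher, where 13.6% and 6.50% of all features were.

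Mitosis genes are known to be controlled through CHR elements and CCAAT boxes upstream of their starts. The promoter of Kif22 is shown because it holds both, and that of Kif23 because it holds only a CCAAT box. Each is the 250 bases before the annotated start, in the gene's direction, from RefSeq on GRCm38.p6, with matches in capitals: Kif22 at chr7:127042421-127042670 (minus strand) and Kif23 at chr9:61946800-61947049 (minus strand).
Kif22: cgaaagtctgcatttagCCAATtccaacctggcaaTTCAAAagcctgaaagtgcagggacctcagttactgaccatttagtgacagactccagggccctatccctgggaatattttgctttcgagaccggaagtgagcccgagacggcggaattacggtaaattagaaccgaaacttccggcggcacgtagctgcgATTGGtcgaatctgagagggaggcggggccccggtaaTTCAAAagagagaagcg
Kif23: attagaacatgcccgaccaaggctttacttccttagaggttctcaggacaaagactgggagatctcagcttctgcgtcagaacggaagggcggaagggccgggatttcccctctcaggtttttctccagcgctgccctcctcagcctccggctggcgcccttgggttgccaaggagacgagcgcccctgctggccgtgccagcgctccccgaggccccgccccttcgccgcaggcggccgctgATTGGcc
A CHR was searched as TTTGAA or its reverse complement TTCAAA and a CCAAT box as CCAAT or ATTGG. Of 36 measured mitosis genes with a RefSeq promoter, 38.9% held a CHR and 72.2% a CCAAT box, against 12.5% and 40.7% of 6758 measured genes with a promoter and 16% and 33.9% of all 32851 promoters. Over the 339 higher genes with a promoter the shares were 15.9% and 44.2%. The 15 higher mitosis genes with a promoter had shares of 33.3% and 66.7%, so the motifs describe the list and not the direction of its change. A match is a description of the letters and not a shown binding site.

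Interferon-stimulated genes had the lowest median of the 26 lists. Of 46 listed genes 38 had a probe set and 30 were measured. Of these, 19 (63.3%) were at least 2-fold below both TSA arrays and 0 were above, and 11 fell by limma, against 7.52% of all features. The median difference was -1.28 from TSA 24 h and -1.35 from TSA 48 h. With the offset at the pooled median, which shrinks dim genes, 9 were below both. Of the 19, Gbp2 and Psmb9, named after their values were seen, passed the filter only through the TSA arrays where they were high.

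Usp18, which removes the ubiquitin-like ISG15, read 16 after removal, against 156.4 at 24 h and 165.4 at 48 h of TSA and 21.4 untreated (-2.65 ± 0.28, limma adjusted p = 0.0115). Rtp4, an interferon-induced chaperone of receptor transport, read 23.8 after removal, 177.4 and 249.1 in TSA and 60.9 untreated (-2.66 ± 0.32). Irf7, the transcription factor that amplifies type I interferon, read 17.9 after removal, 132.6 and 150.2 in TSA and 62.2 untreated (-2.38 ± 0.30, limma adjusted p = 0.0162). For all of them the TSA arrays were close together and far above the removal array. Bst2, or tetherin, which holds budding viruses on the cell surface, read 105.5 after removal, 400.1 and 558.5 in TSA and 126.4 untreated. Bst2 also fell (-2.05 ± 0.32, limma adjusted p = 0.0186) and is shown after its values were seen, for its promoter. The signals of Usp18 and Bst2 after removal were close to the untreated ones, while Irf7 and Tap1 were lower after removal. Ifi27l2a, an interferon-induced membrane protein outside the list that ranked among the largest decreases, read 3.8 after removal, 124.9 and 159.9 in TSA and 65.2 untreated (-3.33 ± 0.32, limma adjusted p = 0.01).

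The ISRE is the element through which interferon-activated factors bind these genes. The promoters of Bst2, at chr8:71537473-71537722 (minus strand), and of Irf7, at chr7:141266425-141266674 (minus strand), are shown because both genes fell and only Bst2 has the motif in this window. Each is the 250 bases before the annotated start from RefSeq on GRCm38.p6, with matches in capitals.
Bst2: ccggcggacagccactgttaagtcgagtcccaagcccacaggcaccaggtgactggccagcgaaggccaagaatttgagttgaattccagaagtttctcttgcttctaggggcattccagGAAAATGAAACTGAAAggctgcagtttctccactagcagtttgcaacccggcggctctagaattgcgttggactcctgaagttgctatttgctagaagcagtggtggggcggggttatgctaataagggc
Irf7: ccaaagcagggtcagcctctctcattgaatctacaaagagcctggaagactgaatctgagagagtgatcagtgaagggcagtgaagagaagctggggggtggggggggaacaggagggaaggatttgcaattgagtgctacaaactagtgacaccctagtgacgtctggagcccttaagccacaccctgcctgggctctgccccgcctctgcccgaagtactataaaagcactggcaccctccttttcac
The motif was TTTC, any 2 bases and TTTC again, or its reverse complement with GAAA in place of TTTC, so both strands were read. The capitals in Bst2 hold 2 overlapping matches. It occurred in 11 of 26 measured interferon-list genes with a promoter (42.3%), against 3.20% of the 6758 measured genes and 2.98% of all promoters, and in 4.47% of the 694 lower genes with a promoter. The list was made of known interferon targets, so the motif describes the list and not the direction of its change.

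Of 14 measured genes that present antigen on MHC class I, 6 (42.9%) were below both TSA arrays and 0 above, and 3 fell by limma. Tap1, the transporter that loads peptides, read 2.0 after removal, 70.0 and 61.5 in TSA and 56.7 untreated (-2.52 ± 0.35, limma adjusted p = 0.0176). B2m, the light chain of class I, read 859.1 after removal, 2192.6 and 2543.4 in TSA and 1560.4 untreated (-1.45 ± 0.20), while its other probe set, with a mean signal of 1460.8, differed by 0.14. The class I heavy chains H2-D1 and H2-K1 read 399.9 and 854.7 after removal, against 2446.8 and 2917.4 at 24 h and 1551.5 and 2700.0 at 48 h of TSA. H2-D1 passed limma (adjusted p = 0.0186) and H2-K1 did not (adjusted p = 0.0702). Their probe sets can bind each other's near-identical transcripts, so the heavy chains are not separable with certainty. Psmb8, an immunoproteasome subunit, read 24.2 after removal and 93.6 and 97.8 in TSA (adjusted p = 0.0684).

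**Figure D3:**
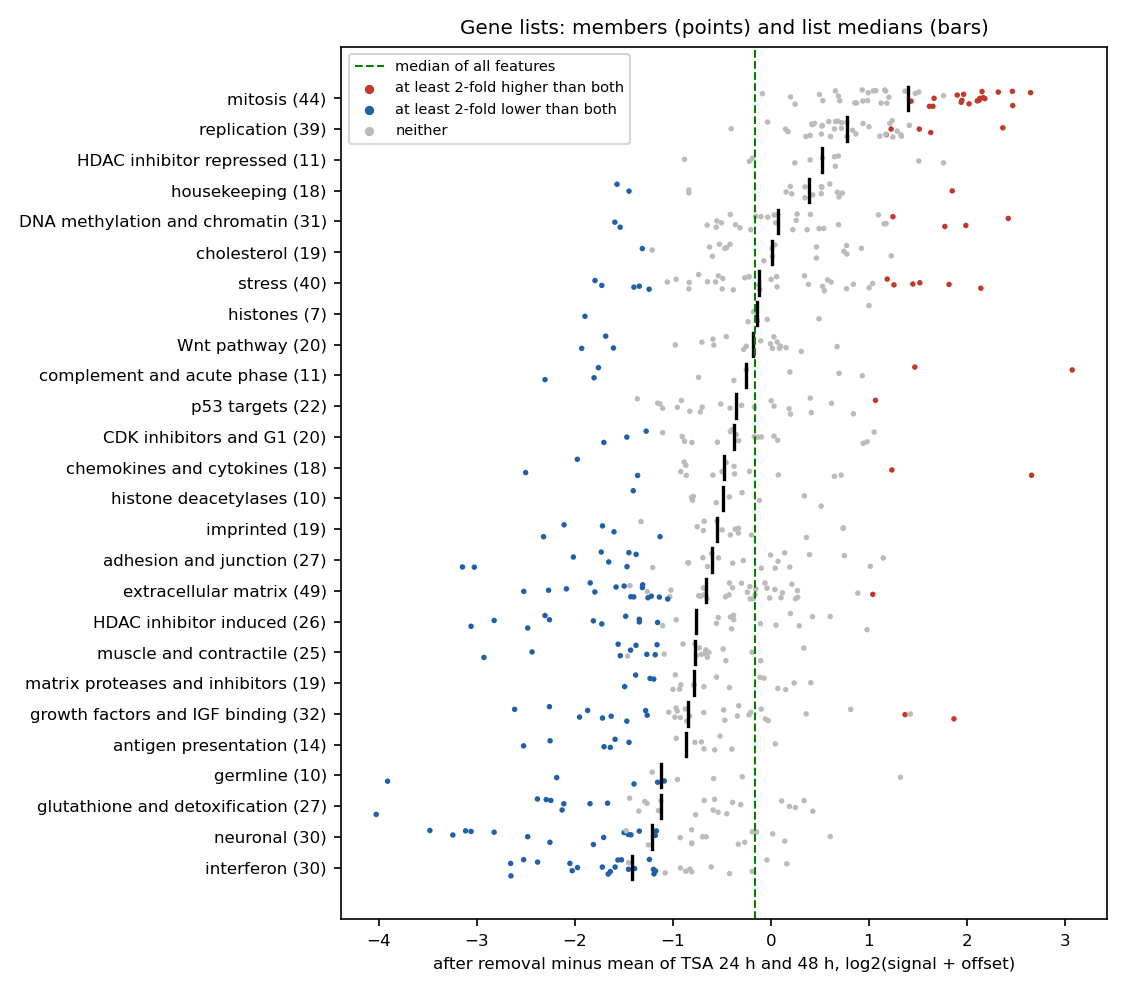
Members (points) and medians (bars) of 26 gene lists by their difference between the array after TSA removal and the mean of the TSA 24 h and 48 h arrays, log2(signal + 11.4), with the number of measured genes in brackets. Mitosis lies furthest to the right, with a median of 1.40, and interferon furthest to the left, with -1.42, while the dashed median of all features is at -0.16.

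Deacetylase inhibitors are known to switch on neuronal genes that fibroblasts normally keep silent. Of 57 listed neuronal genes 30 were measured, 15 of them (50.0%) were below both TSA arrays and 0 above, and 10 fell by limma. The median difference was -1.49 from TSA 24 h and -0.99 from TSA 48 h. An offset at the pooled median left 6 below both. Of the 15, Prph and Stmn4, named after their values were seen, passed the filter only through the TSA arrays where they were high.

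Nts, the neuropeptide neurotensin, read 22.3 after removal, against 331.7 at 24 h and 218.7 at 48 h of TSA and 18.2 untreated (-3.06 ± 0.48, limma adjusted p = 0.0186). In p53-null cells it read 24.9 untreated, 708.7 at 24 h and 327.1 at 48 h of TSA. The removal array was thus near the untreated arrays of both genotypes, and all 4 TSA arrays were high. Uchl1, a ubiquitin hydrolase abundant in neurons, read 109.2 after removal, 1009.3 and 702.9 in TSA and 171.0 untreated (-2.82 ± 0.60). Stmn2, a microtubule regulator of growth cones, read 5.5 after removal, 134.1 and 49.8 in TSA and 13.8 untreated, and its p53-null signals were 192.7 untreated and 1251.1 and 1092.0 in TSA. Ncam1, a neural adhesion molecule, fell (-2.25 ± 0.39), to 85.1 against 460.2 and 438.2 in TSA.

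A list of genes known from other cells to be induced by deacetylase inhibitors shares 6 measured genes with the neuronal list, Crmp1, Nts, Stmn2, Syt11, Tubb3 and Uchl1. Of its 26 measured genes 11 (42.3%) were below both TSA arrays and 0 above, and 9 fell by limma, and with the offset at the pooled median 7 were below both. Clu, the chaperone clusterin, read 302.6 after removal, 1655.0 and 1432.4 in TSA and 521.0 untreated (-2.30 ± 0.32, limma adjusted p = 0.0182). Ccn2, a matricellular growth factor also called CTGF, read 257.4 after removal, 1681.0 and 967.4 in TSA and 472.1 untreated (-2.26 ± 0.37). The metallothioneins Mt1 and Mt2, which bind zinc, fell with differences of -1.34 ± 0.29 and -1.72 ± 0.37. Cdkn1a, the best known target of these drugs and here chosen after its values were seen, did not pass, at 34.0 after removal, 162.2 at 24 h and 43.4 at 48 h of TSA (adjusted p = 0.241). Of 11 genes known to be repressed by the inhibitors 0 were past 2-fold against both TSA arrays, and limma called 0 of them, with 2 higher and 1 lower at an unadjusted p under 0.05. Their median was 0.92 against TSA 24 h and 0.11 against TSA 48 h.

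The p53-null arrays enter neither side of the size rule, although they took part in the filter, in the choice of probe sets and in the spread of the limma fit. In p53-null cells 145 of all features (1.54%) were at least 2-fold above the untreated array at both times of TSA, and 94 (1.00%) were that far below it. Among the 950 features lower after removal, 44 (4.63%) were above and 0 below the untreated p53-null array in this way. Among the 493 features higher after removal, 11 (2.23%) were above and 12 (2.43%) below it. Most members were thus past 2-fold in neither direction in p53-null cells, and their median p53-null differences were 0.14 at 24 h and 0.12 at 48 h for the lower set and 0.04 and 0.14 for the higher set, against 0.01 and 0.03 for all features. With the offset at the pooled median the lower set held 427 features, and the count of 44 was 11. The share over all features is not given at that offset.

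Ccn3, a matricellular relative of Ccn2, read 20.1 after removal, 112.8 and 209.9 in TSA and 38.4 untreated, and 247.4, 1255.5 and 1850.1 in p53-null cells untreated, at 24 h and at 48 h of TSA. Pla2g7, which breaks down platelet-activating factor, read 46.8 after removal, 216.4 and 246.8 in TSA and 80.1 untreated, and 16.8, 96.7 and 118.1 in p53-null cells in the same order of times. Gstk1, a mitochondrial and peroxisomal glutathione transferase, read 66.1 after removal, 493.7 and 210.9 in TSA and 84.6 untreated, and 24.5, 178.2 and 131.0 in p53-null cells. These genes were chosen for being lower after removal and higher with TSA in p53-null cells, so that pattern is a description. Tmem35a, a chaperone of acetylcholine receptors, was dim after removal at 4.5, against 30.8 and 37.1 in TSA, and did not pass limma (adjusted p = 0.0711). On the higher side Psph, which makes serine, read 731.2 after removal, 336.5 and 309.9 in TSA and 656.0 untreated, and 483.1, 199.3 and 178.4 in p53-null cells untreated, at 24 h and at 48 h. Trip13, which recycles checkpoint complexes, read 1028.0 after removal and 228.1 and 502.0 in TSA, and Acsl5, which activates fatty acids, 718.5 after removal and 335.7 and 348.9 in TSA. Neither passed limma (adjusted p = 0.058 and 0.0516), and in p53-null cells both were lower in TSA, with differences of -1.25 and -1.54 and of -1.30 and -1.30 at 24 h and 48 h. Malat1 and Rbm26, an RNA-binding protein, rose after removal, and in p53-null cells their TSA arrays were also above the untreated one, with differences of 1.92 and 2.17 and of 1.48 and 1.53. Pmaip1, the cell death gene also called Noxa, read 141.4 after removal and 58.6 and 64.3 in TSA without passing limma (adjusted p = 0.118), and 3.0, 71.3 and 33.8 in p53-null cells untreated, at 24 h and at 48 h.

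**Figure D4:**
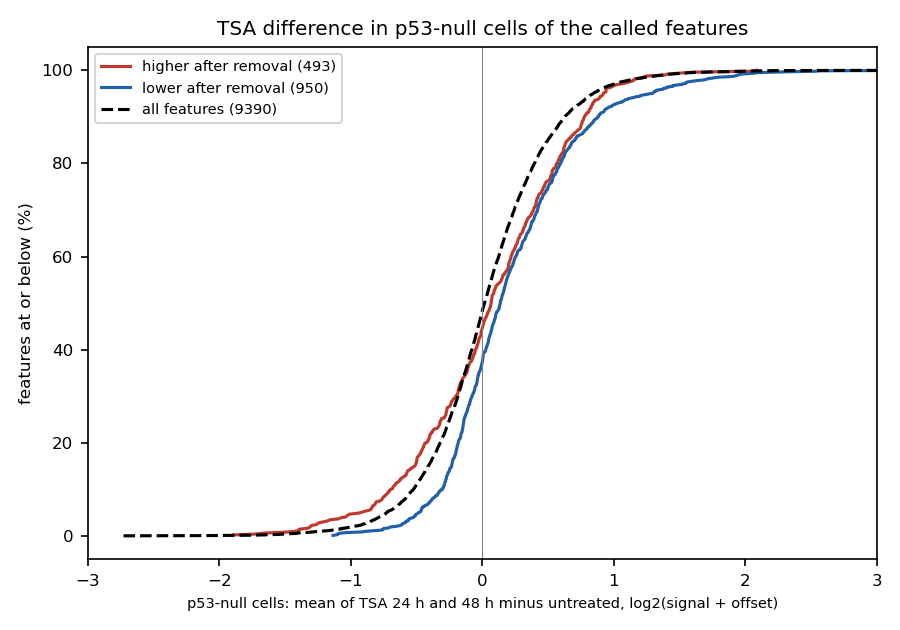
Cumulative share of features by their TSA difference in p53-null cells, the mean of 24 h and 48 h minus untreated on the log2(signal + 11.4) scale, for the 493 features higher after TSA removal, the 950 lower and all 9390. The curve of the lower features lies to the right of all features over most of its length, and that of the higher features crosses it.

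Many germline genes are held silent by DNA methylation in somatic cells. Of 48 listed genes 32 had a probe set and only 10 were measured, of which 5 were below both TSA arrays, 0 above, and 3 fell by limma. With the offset at the pooled median 2 were below both, and with every difference centred 3. Tex101, a surface protein of male germ cells, read 4.8 after removal, against 212.8 at 24 h and 253.8 at 48 h of TSA, 4.1 in untreated p53-Dnmt1-null cells and 1.8 to 7.4 in p53-null cells. It passed the filter only through the TSA arrays of p53-Dnmt1-null cells and had to be high there. It was thus high on the TSA arrays of p53-Dnmt1-null cells alone and under 11.4 on the other 5. Tex19.1, a germline protein that restrains retrotransposons, read 152.7 after removal, 746.3 and 723.7 in TSA and 757.2 untreated, and 2.4 to 12 in p53-null cells (-2.19 ± 0.37). The homeobox gene Rhox5 read 295.0 after removal, 611.1 and 668.6 in TSA and 621.3 untreated (-1.09 ± 0.29), with 20.5 to 26.7 in p53-null cells. For Tex19.1 and Rhox5 the untreated p53-Dnmt1-null cells were at the level of the TSA arrays, and of that genotype the removal array alone was lower. Taf7l, a germline subunit of the basal transcription machinery, had the same pattern without passing limma, at 14.8 after removal, 53.7 and 61.6 in TSA and 55.9 untreated (adjusted p = 0.0668).

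The promoter of Tex101 is shown because its RNA was under 11.4 on the 5 arrays other than TSA in p53-Dnmt1-null cells, and CG dinucleotides are the sites that Dnmt1 keeps methylated. It is the 250 bases before the annotated start at chr7:24672051-24672300 (minus strand) from RefSeq on GRCm38.p6, with its 14 CG dinucleotides in capitals.
Tex101: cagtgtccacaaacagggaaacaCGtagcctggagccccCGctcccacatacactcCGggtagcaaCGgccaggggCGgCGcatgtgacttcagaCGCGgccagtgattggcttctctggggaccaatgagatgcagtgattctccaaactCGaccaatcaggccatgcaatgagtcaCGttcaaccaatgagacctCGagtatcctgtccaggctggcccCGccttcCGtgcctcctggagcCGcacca
The median number of CG in the same window was 18 over the 6758 measured genes with a promoter, 21 over the higher and 15 over the lower ones. Methylation was not measured on these arrays.

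Imprinted genes are expressed from 1 parental copy. Of 19 measured ones 5 (26.3%) were below both TSA arrays, 0 above, and 4 fell by limma, while against TSA 24 h alone 8 were past 2-fold lower. Mest read 395.6 after removal, 1495.5 and 2727.3 in TSA and 1012.4 untreated (-2.32 ± 0.51, limma adjusted p = 0.033). Dlk1, a Notch-related inhibitor of differentiation, read 42.8 after removal, 220.3 and 224.8 in TSA and 292.8 untreated (-2.11 ± 0.28). Igf2, the fetal growth factor, read 22.8 after removal, 109.9 and 92.9 in TSA and 66.2 untreated (-1.72 ± 0.43). The removal array was the lowest of the p53-Dnmt1-null arrays for each of these genes. Beside the 8 imprinted genes past 2-fold lower than TSA 24 h alone, 2 were higher, where 17.4% and 12.4% of all features were. Ndn, a growth suppressor of neurons, fell (-1.60 ± 0.34), to 63.2 against 266.0 and 173.0 in TSA, and untreated cells stood at 69.6.

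**Figure D5:**
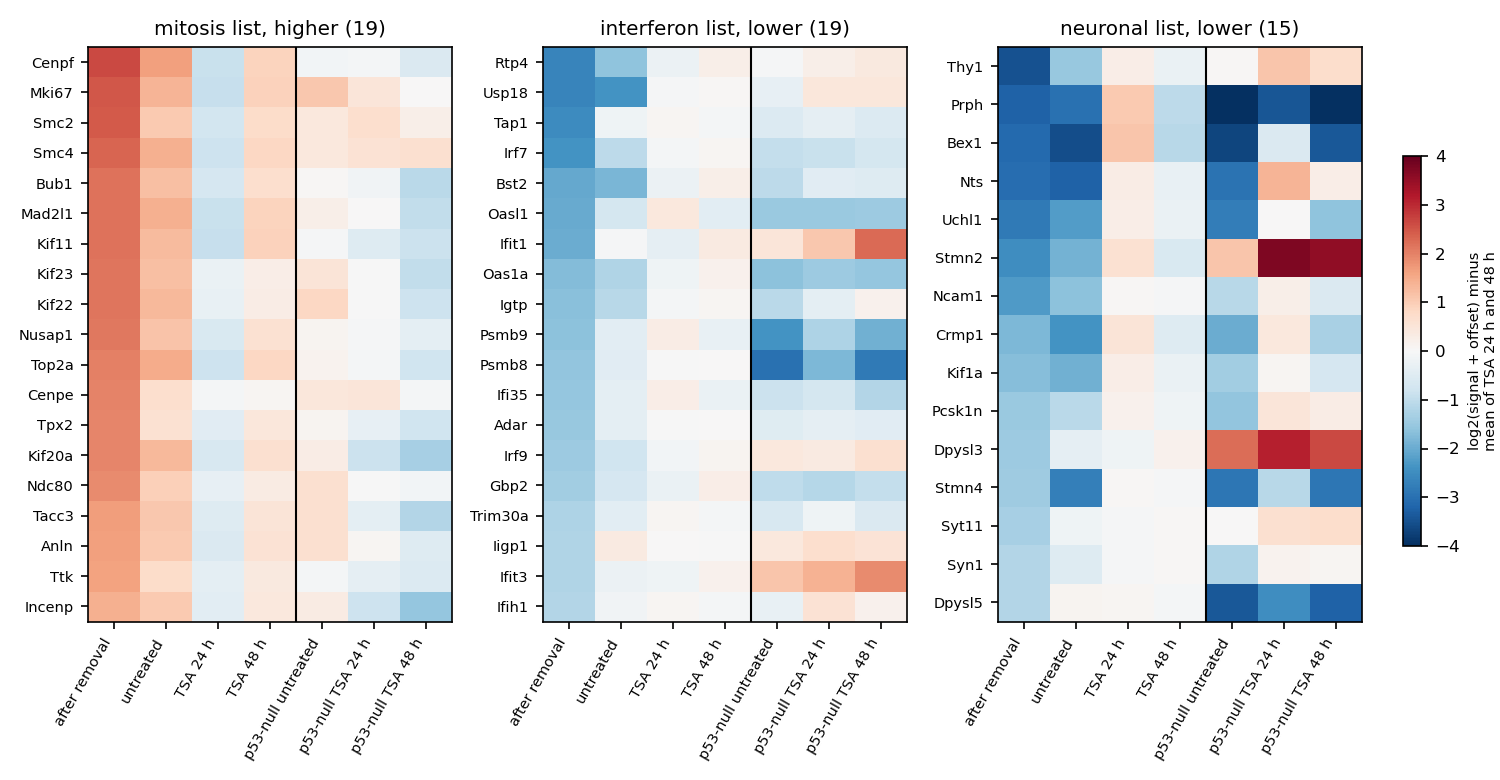
Members of the mitosis list that were higher and of the interferon and neuronal lists that were lower after TSA removal, on all 7 arrays, coloured by log2(signal + 11.4) minus the mean of the TSA arrays of p53-Dnmt1-null cells, on a scale that stops at -4 and 4. The first column, after removal, is darkest for most rows, and the p53-null columns right of the line include values on both sides.

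Of 49 measured matrix genes 15 (30.6%) were below both TSA arrays, 1 was above, and 16 fell by limma. Col1a1 and Col1a2, the chains of collagen I, read 593.0 and 93.9 after removal, against 1379.1 and 352.3 at 24 h and 2080.1 and 696.2 at 48 h of TSA, and fell with differences of -1.50 ± 0.26 and -2.27 ± 0.38. Col3a1, of collagen III, read 205.3 after removal, 680.0 and 1213.1 in TSA and 571.3 untreated (-2.09 ± 0.34). Ecm1, a glycoprotein of the matrix of skin and vessels, read 200.7 after removal, 1084.1 and 1342.7 in TSA and 412.6 untreated (-2.52 ± 0.28, limma adjusted p = 0.0115). All 4 genes were lower after removal than on any other p53-Dnmt1-null array. Nid2, which links basement membrane proteins, fell as well (-1.80 ± 0.29). Among proteases and their inhibitors, Timp3 and the membrane collagenase Mmp14 fell with differences of -1.49 ± 0.32 and -1.23 ± 0.30, while Timp1 (adjusted p = 0.0726) and Adamts5 did not pass limma. Postn, the member above both TSA arrays, was dim, at 16.8 after removal, 2.4 and 2.2 in TSA, against 1175.8 to 3814.6 in p53-null cells (adjusted p = 0.163).

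The fibroblast markers were split rather than uniformly lower. Of 20 measured markers 4 were above and 4 below both TSA arrays, and limma called 2 up and 6 down. An offset at the pooled median left 2 above both. Ddr2, a receptor for collagen, read 508.9 after removal, 90.5 and 148.3 in TSA and 161.8 untreated (2.03 ± 0.37, limma adjusted p = 0.0231). Prrx1, a mesenchymal homeobox factor, read 136.3 after removal, 25 and 28 in TSA and 52.1 untreated (1.96 ± 0.29). Zeb2, a repressor of epithelial genes, read 61.7 after removal and 17.7 and 16.5 in TSA without passing limma (adjusted p = 0.0557). Twist1, another mesenchymal factor, read 34.4 after removal, 44.0 and 99.3 in TSA and 73.8 untreated, and Snai2 read 20.3 after removal, 18.3 and 16.7 in TSA and 4.6 untreated, so such factors did not share 1 direction. These last genes were added after their values were seen. Of 16 measured epithelial and mesothelial markers 3 were below both TSA arrays and 0 above, and 2 fell by limma, while 5 were past 2-fold lower against TSA 24 h alone. Krt7, a keratin of simple epithelia, read 24.9 after removal, 201.1 and 659.7 in TSA and 299.0 untreated (-3.38 ± 0.60, limma adjusted p = 0.0226). Msln, or mesothelin, read 224.9 after removal, 1156.4 and 1186.9 in TSA and 511.7 untreated (-2.32 ± 0.30). Epcam, an epithelial adhesion protein, read 3.5 after removal, 108.7 and 18.8 in TSA and 8.0 untreated (adjusted p = 0.123), above 45.6 at 24 h of TSA alone, through which it passed the filter. The keratins Krt8 and Krt18 were bright on every p53-Dnmt1-null array, with 2072.9 and 2718.8 after removal, 3313.1 and 4359.4 at 24 h and 2200.1 and 3078.9 at 48 h of TSA. How far these marker shifts contribute to the collagen, junction or interferon results was not tested.

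Of 25 measured muscle and contractile genes 9 (36.0%) were below both TSA arrays, 0 above, and 9 fell by limma. Des, the intermediate filament of muscle, read 43.9 after removal, 557.9 and 299.9 in TSA and 127.3 untreated (-2.93 ± 0.43, limma adjusted p = 0.0182). Actc1, cardiac actin, read 53.1 after removal, 344.7 and 330.9 in TSA and 81.5 untreated (-2.44 ± 0.30), and Acta1, skeletal actin, read 58.6, against 195.8 and 160.5 in TSA and 58.1 untreated (-1.43 ± 0.31). Actc1 and Acta1 were thus close to the untreated level after removal and high in TSA alone. Fhl1, a LIM protein of muscle, fell as well (-1.54 ± 0.25). Among 27 measured junction and adhesion genes 8 were below both TSA arrays and 0 above, and 4 fell by limma, among them Cldn3 and the connexin Gjb5, at 3.7 after removal and 149.3 and 82.8 in TSA. An offset at the pooled median left 5 of them below both. Jup, or plakoglobin, and the integrin chain Itga3 fell with differences of -1.65 ± 0.30 and -1.45 ± 0.38.

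Aldh1a1 belongs to a list of glutathione and detoxification genes. Of its 27 measured genes 8 (29.6%) were below both TSA arrays, 0 above, and 7 fell by limma. Against TSA 24 h alone 16 were past 2-fold lower. Aldh1a7, a close relative of Aldh1a1, read 19.8 after removal, 136.2 and 167.8 in TSA and 60.3 untreated (-2.38 ± 0.36), and probe sets of such near-identical genes may share transcripts. Gstm2, a glutathione transferase, read 62.1 after removal, 294.7 and 216.4 in TSA and 158.6 untreated (-1.85 ± 0.35). Akr1c18, which breaks down progesterone, read 1.4 after removal, 59.3 and 44.2 in TSA and 28.6 untreated, and passed the filter only through the TSA 24 h array. All of them were lowest after removal among the p53-Dnmt1-null arrays.

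Of 32 measured growth factors and their binding proteins 9 (28.1%) were below both TSA arrays, 2 above, and limma called 6 lower and 1 higher. Igfbp2, which binds insulin-like growth factors, read 314.0 after removal, 1789.1 and 2194.9 in TSA and 403.9 untreated (-2.61 ± 0.25, limma adjusted p = 0.01). In p53-null cells Igfbp2 read 664.7 untreated and 1962.3 and 2215.5 at 24 h and 48 h of TSA. Both genotypes thus had high Igfbp2 on TSA arrays, and the removal array was near the untreated one. Inhbb, a subunit of inhibins and activins, fell (-1.95 ± 0.47). Igfbp3 read 29.3 after removal, 149.9 and 125.7 in TSA and 86.9 untreated and did not pass limma (adjusted p = 0.315). Fgf7, a fibroblast-made growth factor for epithelium, rose by 1.37 ± 0.30, to 84.3 after removal, against 27.6 and 23.7 in TSA. Ptn, pleiotrophin, read 78.9 after removal and 5.4 and 24.9 in TSA without passing limma (adjusted p = 0.111). Of 18 measured chemokines and cytokines 2 (11.1%) were above both TSA arrays and 3 (16.7%) below, against 5.25% and 10.1% of all features. Against TSA 48 h alone 5 were past 2-fold lower and 3 higher, where 13.6% and 6.50% of all features were. Ccl5, Ccl8 and Cxcl12, which attract lymphocytes and monocytes, fell with differences of -2.50 ± 0.46, -1.97 ± 0.35 and -1.36 ± 0.32, while Cxcl1 and Cxcl5 rose. The other Cxcl12 probe set, at a mean signal of 851.8, differed by only -0.56. Of 11 measured complement and acute-phase genes 2 (18.2%) were above and 3 (27.3%) below both TSA arrays, and Serping1, the C1 inhibitor, fell (-1.76 ± 0.39).

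Of 40 measured stress genes 6 (15%) were above both TSA arrays and 5 (12.5%) below, and limma called 4 each way. Against TSA 24 h alone 9 were past 2-fold lower and 8 higher, where 17.4% and 12.4% of all features were. Gclc, which catalyses the first step of glutathione synthesis, read 409.5 after removal, 86.9 and 80.7 in TSA and 160.3 untreated (2.15 ± 0.34, limma adjusted p = 0.0186). Trib3, a target of the amino acid and endoplasmic reticulum stress factor ATF4, read 515.7 after removal, 156.8 and 121.0 in TSA and 328.2 untreated (1.82 ± 0.45). Hsp90b1, a chaperone of the endoplasmic reticulum, rose by 1.52 ± 0.33, and Chac1, another ATF4 target, read 704.7 after removal and 217.1 and 288.7 in TSA without passing (adjusted p = 0.0744). These were the higher members. On the lower side, Hmox1, which degrades haem, and Xbp1, a factor of the unfolded protein response, fell with differences of -1.79 ± 0.36 and -1.40 ± 0.26. The 3 other probe sets of Xbp1, at mean signals of 70.0 to 847.5, differed by only -0.69 to -0.16.

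Of 31 measured genes of DNA methylation and chromatin 4 were above and 2 below both TSA arrays, and limma called as many each way. As shares of the list these were 12.9% above and 6.45% below, against 5.25% and 10.1% of all features. Against TSA 24 h alone 8 were past 2-fold higher and 2 lower, where 12.4% and 17.4% of all features were. Hells, a remodeller needed for DNA methylation, read 497.8 after removal, 47.2 and 142.0 in TSA and 221.4 untreated (2.43 ± 0.52, limma adjusted p = 0.0318). Suz12, a Polycomb subunit, and Rbbp7, a histone chaperone in deacetylase complexes, rose by 1.78 ± 0.42 and 1.25 ± 0.24. Mbd4, a glycosylase that repairs deaminated CG sites, read 143.8 after removal and 20.3 and 36.6 in TSA, and passed the filter only through the removal array. Mbd1, which binds methylated DNA, fell (-1.59 ± 0.31), to 114.5 against 356.2 and 380.1 in TSA, and Cbx3, a heterochromatin protein, fell as well (-1.54 ± 0.34). Of 10 measured histone deacetylase genes 1 was below both TSA arrays, Sirt2, at 100.2 after removal and 371.3 and 216.4 in TSA (-1.40 ± 0.37, limma adjusted p = 0.0483), and 0 were above.

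The untreated p53-Dnmt1-null array places the members, although its differences share the removal array or the TSA arrays with the comparison. Because members were chosen for an extreme reading on the removal array, that choice pulls the untreated array towards the middle, and the following values are a description. Median signals of the 493 higher features were 297.8 after removal, 72.5 and 104.0 in TSA and 134.1 untreated. For the 950 lower features they were 46.8 after removal, 174.05 and 161.6 in TSA and 111.15 untreated. The median differences between the removal array and the untreated array were 1.03 for the higher and -1.08 for the lower features. Among single genes, Tex101, Nts, Acta1 and Igfbp2 had close to the untreated signal after removal, whereas Malat1 and Taok1 on the higher side and Krt7, Bckdha and Tap1 on the lower side lay beyond it. Side by side, after removal 493 features were past 2-fold above and 950 below both TSA arrays, and in untreated cells 32 were above and 176 below.

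The 2-fold threshold passed between genes of nearly equal difference. Just inside it on the higher side lay 4930453N24Rik, with differences of 1.0794 from TSA 24 h and 1.0 from TSA 48 h, and Zfp931, with 1.0 and 1.0773. Ipo7, a nuclear import receptor, and Ice1, a subunit of the complex that transcribes small nuclear RNAs, lay just outside, with 2.2422 and 0.9994 and with 2.1551 and 0.999. On the lower side the ubiquitin ligase Rnf149 and the testis-rich chaperone Hspa2 lay just inside, with -1.0 and -1.1781 and with -1.0013 and -1.3089, and the ubiquitin ligase Trim2 and the endosomal protein Ehd1 lay just outside, with -0.9984 and -1.3853 and with -0.9977 and -1.06. A second probe set gave a further reading for some members. Of 234 other probe sets of higher genes with a mean signal above 45.6, 153 were past 2-fold the same way and 14 had the opposite sign, and of 305 for lower genes, 149 were past 2-fold and 30 had the opposite sign.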

How the data were processed

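TriZol was used to extract total RNA from 7 samples, and labelling followed the standard Affymetrix procedure, per the labels' protocols. The deposited signal intensity of 22690 probe sets on each array was made by the authors with MAS5, per the submitters' processing notes (version not given in the sources used here), and each array had a 2% trimmed mean of 150. The intensity is linear.

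After 64 control probe sets were left out, features with an intensity above the pooled median, 45.6, on at least 1 of the 7 arrays were kept, and each gene was given the probe set with the highest mean, which left 9390 features. Of the probe sets 20393 had 1 gene symbol, 691 several and 1606 were unlisted in the platform annotation. For 20364 the symbol was updated through the Entrez ID from RefSeq GRCm38.p6, which was used for names and promoters only. Values were analysed as log2(signal + 11.4) in R 4.3.3 with limma 3.58.1 (trend, Benjamini-Hochberg), and the fit was tested on simulated data. No batch is named in the labels.

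Members and gene lists were chosen with earlier results of these data known. Named genes were the 15 with the largest difference from the nearer TSA array in each direction, up to 4 members per list and direction, the 15 with the smallest p in each direction, Dnmt1, genes beside the threshold, and 6 in each direction with the largest p53-null TSA difference. Not every gene that this rule gives is described. Alternatives changed the offset, the filter, the normalization, the probe set rule, the fold, the arrays and, chosen after seeing the data, the centring.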

Additional observations from a re-analysis of the deposited data

How the results depend on the processing

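Against main counts of 493 higher and 950 lower features by size and 395 and 706 by limma, an offset at the pooled median gave 301 and 427 by size, and in p53-null cells 11 lower features above untreated and 3 and 2 higher features above and below it (main 44, 11 and 12). An offset of 1 gave 72 and 9 lower features above and below untreated in p53-null cells, and 25 and 21 higher ones. With no filter limma called 0 and 0, although 4043 of 14639 features had an unadjusted p under 0.05 (731.95 expected, lowest adjusted p 0.0704), and 1 lower feature was below untreated in p53-null cells. With every probe set on its own the counts were 1012 and 1213 by size, 907 and 1069 by limma, and 19 and 19 for the higher features in p53-null cells. The 4 p53-Dnmt1-null arrays alone gave 263 higher and 515 lower by limma, and no variance trend gave 268 and 538. A 4-fold threshold gave 33 and 94 by size, with 12 lower features above untreated in p53-null cells and 1 and 0 higher ones above and below it. Centring, added after seeing the data, gave 710 and 654, and 21 higher features below untreated in p53-null cells. Leaving out the TSA 24 h or the TSA 48 h array gave ranges of 4 to 675 higher and 19 to 755 lower by limma, and of 610 to 1161 and 1275 to 1631 by size. In p53-null cells these settings gave 47 to 59 and 0 to 1 lower features above and below untreated, and 11 to 23 and 21 to 39 higher ones. The causes of these moves were not tested, beyond the smaller number of arrays or features that some settings use. Quantile normalization and a filter on 2 of the 4 p53-Dnmt1-null arrays kept these counts over all features within 1.5 times the main ones, but not all counts of small gene lists (fibroblast markers above both TSA arrays were 2 under that filter, against 4). None of the 154 named genes changed direction in the alternatives run gene by gene (all but centring and the 4-fold threshold), and limma lost 116 with no filter, 100 without the TSA 24 h array and 0 to 20 otherwise. The removal array could not be left out, since it was single. No paired analysis was possible because each group held 1 array.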

Other observations

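Some lists lay closer to the median of all features. Of 19 measured cholesterol genes 1 was below both TSA arrays and 0 above, while against TSA 24 h alone 2 were lower and 5 higher. The 1 below both was Hsd17b7, an enzyme of cholesterol synthesis, at 51.8 after removal, 148.0 and 142.9 in TSA and 153.7 untreated (-1.31 ± 0.29, limma adjusted p = 0.033). Another Hsd17b7 probe set, at a mean signal of 51.5, differed by 0.21. The linker histone gene H1f2 was the 1 of 7 measured histone genes below both, at 236.7 after removal, 924.1 and 901.2 in TSA and 438.4 untreated (-1.90 ± 0.26). In the Wnt list 3 of 20 measured genes were below both and 0 above. Axin2, a feedback inhibitor of Wnt signalling, fell (-1.93 ± 0.51), to 28.6 after removal, against 97.4 and 202.2 in TSA, and the secreted Wnt binder Sfrp2 and the ligand Wnt11 did not pass limma (adjusted p = 0.0714 and 0.0895). Of 22 measured p53 targets, in cells that all lacked p53, 1 was above both TSA arrays and 0 below, while against TSA 24 h alone 4 were higher and 6 lower and against TSA 48 h alone 1 was higher and 2 lower, and limma called 0, with 1 higher and 6 lower at an unadjusted p under 0.05.

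Genes often taken as constant were not all so. Their counts past both TSA arrays lay near the shares over all features, 5.25% above and 10.1% below. Of 18 measured housekeeping genes 1 was above and 2 below both TSA arrays, and limma called 3 higher and 3 lower. Tfrc, the transferrin receptor, read 1323.6 after removal, 294.2 and 435.4 in TSA and 695.6 untreated (1.85 ± 0.49, limma adjusted p = 0.0491). Polr2a, the largest subunit of RNA polymerase II, read 220.1 after removal, 529.5 and 861.7 in TSA and 958.8 untreated (-1.57 ± 0.37). The other gene below both was B2m, whose other probe set differed by 0.14. Cd68, a macrophage and lysosome marker, read 20.4 after removal, 129.0 and 69.6 in TSA and 24.4 untreated (adjusted p = 0.0799).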
